A study of Homo sapiens with 10 samples.

Results

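Immediate early genes are switched on within minutes of a growth signal, from RNA polymerase and transcription factors already present in the cell. Growth factor receptors act through the ERK kinases and through actin signalling on serum response factor (SRF), a DNA-binding protein that recruits ternary complex factors such as ELK1 or the cofactors MRTFA and MRTFB to CArG boxes. Many of the transcripts are short-lived, because AU-rich elements in their 3′ UTRs are bound by proteins that bring on decay, and ZMAT3 is itself a zinc finger protein that binds AU-rich RNA. The genes described here are the 10 immediate early genes outside the AP-1 (FOS and JUN) family that were chosen by symbol: the zinc finger factors *EGR1* and *EGR3*, the immediate early response genes *IER2*, *IER3* and *IER5*, the Krüppel-like factors *KLF4* and *KLF6*, the nuclear receptor *NR4A1*, and *MYC* and *SRF*. All 10 were in both expression tables, among 13029 genes of the *ZMAT3* table and 17642 of the siRNA table.

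All 10 libraries were RNA-seq of HCT116, a human colorectal cancer cell line. In the first experiment 3 *ZMAT3*-KO cultures were compared with 3 *ZMAT3*-WT cultures. Both were single-cell clones, and the knockout was made by CRISPR/Cas9 with guides around the p53 response element in an intron of *ZMAT3*, so the coding sequence was not the target. The knockout was 1 clone, and the spread among replicates is that among its cultures. An effect of losing *ZMAT3* and a difference between clones therefore cannot be told apart in this comparison. The labels give no drug treatment and add the abbreviations EV and unt, which no source explains. In the second experiment 2 cultures transfected with siRNAs against p53 (sip53) were compared with 2 transfected with a control siRNA (siCTRL), for 72 h according to the design text. No stimulation with serum or a growth factor is described for either experiment. The study describes its *ZMAT3* libraries as biological replicates and its siRNA data as coming from independent experiments, of which it counts more than the siRNA libraries analysed here. The labels do not tie a library to an experiment, and the p-values measure only the spread between these samples.

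*ZMAT3* was 7.43-fold lower in *ZMAT3*-KO libraries (log2 fold change -2.89), as their labels say, and *CDKN1A* had a log2 fold change of -0.53 there. In sip53 libraries *ZMAT3* had a log2 fold change of -2.31 and *CDKN1A*, the gene of the cell cycle inhibitor p21, one of -3.80. The values give no read counts, and the depth of every library is unknown. Of 7 colorectal epithelial markers 5 were in the *ZMAT3* table, and their summed level was 5730 to 6060 CPM in *ZMAT3*-WT and 3140 to 3220 CPM in *ZMAT3*-KO libraries. *KRT19* had a log2 fold change of -1.75, *KRT8* one of -0.94 and *KRT18* one of -0.82, while *EPCAM* had one of 0.01. In the siRNA table the 6 listed markers summed to 3730 to 3960 FPKM in siCTRL and 3520 to 4160 FPKM in sip53 libraries, with *VIL1* at 0.13 to 0.22 FPKM. *EPCAM* read 204.96 and 191.12 FPKM in siCTRL and 281.14 and 319.26 FPKM in sip53 libraries (log2 fold change 0.60, limma unadjusted p = 0.0234, adjusted p = 0.247), while *KRT8* (-0.05), *KRT18* (0.07) and *KRT19* (-0.15) had overlapping groups. *PTPRC*, *CD3E*, *COL1A2* and *DCN*, which define leukocytes and fibroblasts, were listed in neither table. The other listed leukocyte marker, *CD68*, was higher in *ZMAT3*-KO (log2 fold change 0.98) and read 7.97 and 2.06 FPKM in siCTRL and 11.60 and 26.93 FPKM in sip53 libraries. Fibroblast markers came to 9.16 to 9.79 CPM in *ZMAT3*-WT and 10.4 to 10.9 CPM in *ZMAT3*-KO libraries (1 of 4 listed), and to 4.22 to 5.64 FPKM in siCTRL and 6.12 to 7.07 FPKM in sip53 libraries (2 of 4). The part of these differences in the results on immediate early genes was not tested.

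In *ZMAT3*-KO cells 8 of the 10 genes were lower than in *ZMAT3*-WT cells and 2, *KLF4* and *KLF6*, were higher, each at an adjusted p under 0.05. The change was nearly 4-fold for *NR4A1* and between 1.23-fold and 1.75-fold for the other 9. With a fold change of at least 1.5 also required, *NR4A1*, *IER3* and *EGR3* were called lower and none was called higher. The unit is log2 CPM, in which counts are relative to the whole library, and the values were tested with limma across all 13029 genes with Benjamini-Hochberg adjustment. By the adjusted p alone 30.1% of all genes were lower and 28.7% higher, and with the 1.5-fold threshold 4.37% were lower and 4.6% higher. In all 10 genes the 3 *ZMAT3*-KO values lay entirely above or entirely below the 3 *ZMAT3*-WT values, as they did downward in 32.9% and upward in 31.3% of all genes. The median log2 fold change of the 10 genes was -0.53, against -0.01 over all genes. In bulk samples fewer cells of a type and less RNA per cell cannot be told apart. With 3 libraries a group an exact permutation test reaches no p lower than 0.1, which is why the fit across all genes was used.

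**Figure D1:**
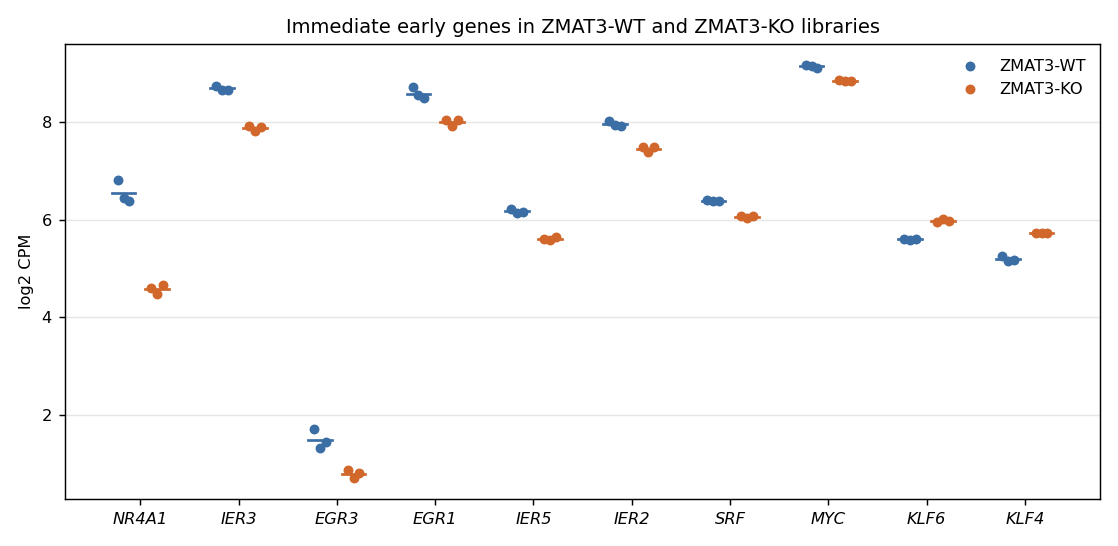
Level of each gene (log2 CPM, vertical axis) in the 3 *ZMAT3*-WT (blue) and 3 *ZMAT3*-KO (orange) libraries. Points are libraries and bars group means. *NR4A1* had the widest gap, from 6.38 to 6.82 down to 4.47 to 4.67, and *KLF6* and *KLF4* were the only genes of the 10 that were higher in *ZMAT3*-KO. Levels of different genes are not comparable here, since CPM are not divided by transcript length.

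*NR4A1* (chr12:52022832-52059507, plus strand, GRCh38) encodes Nur77, an orphan nuclear receptor that works as a transcription factor without a known hormone. It read 6.82, 6.45 and 6.38 log2 CPM in *ZMAT3*-WT and 4.61, 4.47 and 4.67 log2 CPM in *ZMAT3*-KO libraries. The lowest *ZMAT3*-WT library was far above the highest *ZMAT3*-KO library, and *ZMAT3*-WT replicate 1 was the highest of its group. The group means were 6.55 ± 0.24 and 4.58 ± 0.11 (SD, n = 3), and the log2 fold change was -1.97 (SE 0.092, limma adjusted p = 2.41e-09), or 3.91-fold lower. It was the one gene of the 10 past 2-fold.

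The early growth response genes encode zinc finger activators that bind GC-rich sites in promoters. *EGR1* (chr5:138465479-138469303, plus strand, GRCh38) read 8.71, 8.54 and 8.48 log2 CPM in *ZMAT3*-WT and 8.03, 7.92 and 8.04 in *ZMAT3*-KO libraries. Every *ZMAT3*-KO value was below every *ZMAT3*-WT value. The log2 fold change was -0.58 (SE 0.052, limma adjusted p = 1.13e-06), and at 1.49-fold lower *EGR1* was just short of the fold threshold. It passed when *ZMAT3*-WT replicate 2, *ZMAT3*-KO replicate 1 or *ZMAT3*-KO replicate 3 was left out (-0.60 each) and without *ZMAT3*-WT replicate 3 (-0.63). *EGR3*, its relative, read 1.71, 1.32 and 1.46 log2 CPM in *ZMAT3*-WT and 0.88, 0.71 and 0.82 in *ZMAT3*-KO libraries. These are low levels, and the groups again did not overlap. The log2 fold change was -0.69 (SE 0.13, limma adjusted p = 0.000564). The call ended when 1 CPM was added before the logarithm, which gave -0.48.

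*EGR1* and *SRF* are textbook targets of SRF, and the promoter sequences that carry its site are shown for that reason. Promoters of 300 bases, from 250 before to 50 after the start, were taken from RefSeq (GRCh38.p14) and matched by symbol, which gave 9 windows for 7 of the 10 genes. *EGR1* and *SRF* held 2 CArG boxes each on the plus strand, in capitals below with 8 bases on either side. The *EGR1* boxes themselves ended 96 and 74 bases before the start, and the stretches printed with their flanks are chr5:138465366-138465391 and chr5:138465388-138465413. The *SRF* boxes themselves ended 21 bases and 1 base before it, and the printed stretches, of which the second runs past the start, are chr6:43171231-43171256 and chr6:43171251-43171276.
EGR1 distal: cggtcctgCCATATTAGGgcttcctg
EGR1 proximal: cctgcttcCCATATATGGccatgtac
SRF distal: ggggctcaCCATATAAGGagcggcct
SRF proximal: cggcctcgCCATAAAAGGaaacattg

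Of all 35116 RefSeq promoter windows, 1.29% held a CArG box. No such box was in the windows of *IER2*, *IER5*, *KLF4*, *KLF6* or *NR4A1*. The windows were also searched on both strands for the cyclic AMP element TGACGTCA (1.85% of all windows), the AP-1 site TGAGTCA (4.95%) and the EGR sites GCGTGGGCG (0.795%) and GCGGGGGCG (5.07%). None of these motifs contains another. Only GCGGGGGCG was found, once each in *KLF6* and *SRF*. A match describes the letters of the window and is not evidence of binding.

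*SRF* (chr6:43171269-43181506, plus strand) read 6.41, 6.38 and 6.38 log2 CPM in *ZMAT3*-WT and 6.08, 6.03 and 6.08 log2 CPM in *ZMAT3*-KO libraries. The replicates were close together and the groups well apart. The log2 fold change was -0.33 (SE 0.031, limma adjusted p = 2.08e-06), or 1.25-fold lower. Its cofactor *MRTFA*, which moves into the nucleus when free actin falls, was called lower (log2 fold change -0.90, SE 0.050, limma adjusted p = 1.35e-08), whereas *MRTFB* rose by 0.25 (adjusted p = 0.000222). Of the ternary complex factors, which link SRF to ERK, *ELK1* rose by 0.10 (adjusted p = 0.0113). *ELK4* had a log2 fold change of 0.15 (adjusted p = 0.0744) and *ELK3* one of -0.06 (adjusted p = 0.12).

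The 3 immediate early response genes all fell. *IER3* (chr6:30743199-30744548, minus strand), which encodes a membrane protein that limits cell death, read 8.74, 8.66 and 8.65 log2 CPM in *ZMAT3*-WT and 7.92, 7.82 and 7.89 in *ZMAT3*-KO libraries. Its log2 fold change was -0.81 (SE 0.034, limma adjusted p = 9.27e-10), or 1.75-fold lower, with every *ZMAT3*-KO library below every *ZMAT3*-WT library. *IER5* (chr1:181088700-181092900, plus strand), which promotes the activity of heat shock factor HSF1, read 6.21, 6.13 and 6.16 log2 CPM in *ZMAT3*-WT and 5.61, 5.58 and 5.65 in *ZMAT3*-KO libraries. The difference of -0.55 (SE 0.035, limma adjusted p = 4e-08) exceeded the SD within each group (0.042 and 0.032) and was short of 1.5-fold. *IER2* (chr19:13150411-13154911, plus strand), a nuclear protein of the same family as *IER5*, read 8.02, 7.93 and 7.91 log2 CPM in *ZMAT3*-WT and 7.49, 7.39 and 7.48 in *ZMAT3*-KO libraries. It was lower by a like amount (log2 fold change -0.50, SE 0.036, limma adjusted p = 1.56e-07).

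*MYC*, the factor that drives ribosome production and cell growth, read 9.17, 9.14 and 9.10 log2 CPM in *ZMAT3*-WT and 8.85, 8.83 and 8.83 in *ZMAT3*-KO libraries. It had the smallest change of the 10 genes, at -0.30 (SE 0.026, limma adjusted p = 1e-06), although no library of one group reached the other. Its dimer partner *MAX* had a log2 fold change of -0.05 (adjusted p = 0.265).

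The Krüppel-like factors went the other way. *KLF4* (chr9:107484852-107490482, minus strand), a factor of differentiated gut epithelium, read 5.25, 5.16 and 5.18 log2 CPM in *ZMAT3*-WT and 5.73 in each of the 3 *ZMAT3*-KO libraries. The *ZMAT3*-KO libraries were all higher, and the log2 fold change was 0.53 (SE 0.036, limma adjusted p = 8.46e-08), or 1.45-fold. *KLF6* (chr10:3775996-3785281, minus strand), which also slows cell growth, read 5.61, 5.58 and 5.61 log2 CPM in *ZMAT3*-WT and 5.95, 6.01 and 5.97 in *ZMAT3*-KO libraries. The shift was smaller, 0.38 (SE 0.033, limma adjusted p = 9.03e-07), and the groups were again separate.

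The close relatives of *EGR1* and *NR4A1* were added after their values had been seen. *EGR2* read 2.60, 2.25 and 2.05 log2 CPM in *ZMAT3*-WT and 0.53, 0.31 and 0.34 in *ZMAT3*-KO libraries, a log2 fold change of -1.90 (SE 0.14, limma adjusted p = 2.03e-07). *NR4A2* read 4.38, 4.07 and 4.13 log2 CPM in *ZMAT3*-WT and 2.51, 2.58 and 2.44 in *ZMAT3*-KO libraries, a log2 fold change of -1.68 (SE 0.079, limma adjusted p = 2.43e-09). Both relatives were thus lower with no overlap, as *NR4A1* was. *NR4A3* was lower by less (-0.58, adjusted p = 0.00531). *EGR4* alone among the 7 genes of these families was higher (0.66, adjusted p = 0.0143), at levels from -0.75 to 0.28 log2 CPM. *EGR2* was also the gene whose pattern was most like that of *NR4A1* over the 6 libraries, with a root mean square difference of 0.0922 between their centred log2 values. *CST6* (0.128) and *CCN1* (0.139) came next.

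**Figure D2:**
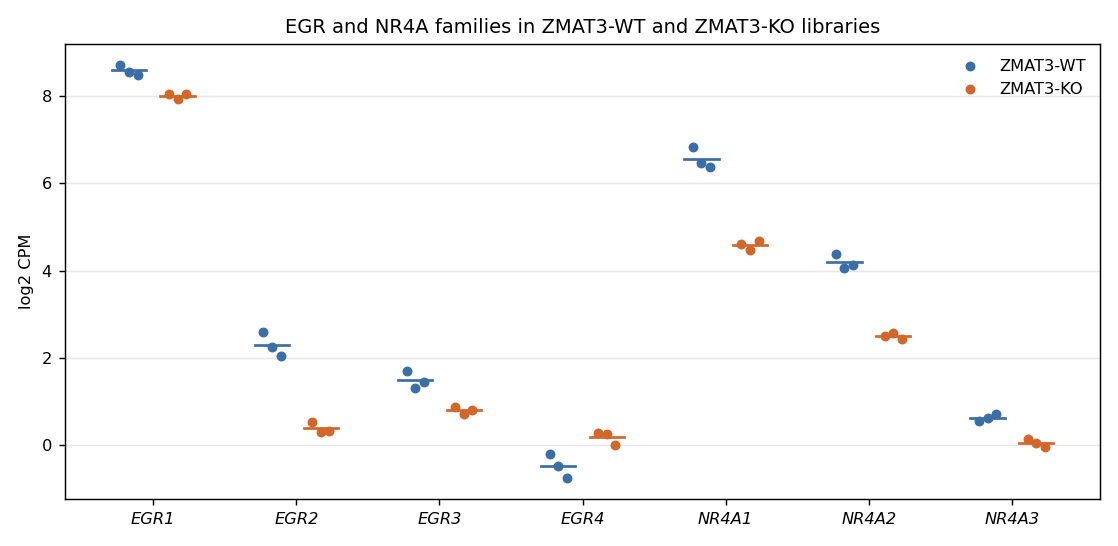
Level (log2 CPM, vertical axis) of the 4 *EGR* and 3 *NR4A* genes in *ZMAT3*-WT (blue) and *ZMAT3*-KO (orange) libraries. Points are libraries and bars group means. In 6 of the 7 genes the *ZMAT3*-KO libraries lay below the *ZMAT3*-WT libraries, and in *EGR4* they lay above.

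Of 54 other immediate early genes 51 were in the *ZMAT3* table, and 14 were called lower and 4 higher. By the adjusted p alone 34 were lower and 10 higher, with a median log2 fold change of -0.25. The list includes *EGR2*, *EGR4*, *NR4A2* and *NR4A3*, which were described above. *EGR2* and *NR4A2* are counted among those called lower and *EGR4* among those called higher. Among all genes 4.37% were called lower and 4.6% higher, and 30.1% and 28.7% by the adjusted p alone. The matricellular growth factor genes *CCN2* and *CCN1* had log2 fold changes of -3.77 (SE 0.15, limma adjusted p = 4.65e-10) and -1.82 (SE 0.045, limma adjusted p = 4.84e-12). *CCN2* read 4.37, 4.47 and 4.14 log2 CPM in *ZMAT3*-WT and 0.56, 0.20 and 0.92 in *ZMAT3*-KO libraries, the widest gap of the list. Among the 4 higher, *ZFP36L1*, whose protein binds AU-rich elements and promotes decay, had a log2 fold change of 0.93 (SE 0.027, limma adjusted p = 2.64e-11). *KLF2*, a Krüppel-like factor best known from blood vessels, had one of 0.68 (adjusted p = 5.55e-07). The relatives of *ZFP36L1* in the list were lower. *ZFP36* had a log2 fold change of -0.91 (limma adjusted p = 7.12e-08, called) and *ZFP36L2* one of -0.41 (limma adjusted p = 9.11e-07, not called).

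**Figure D3:**
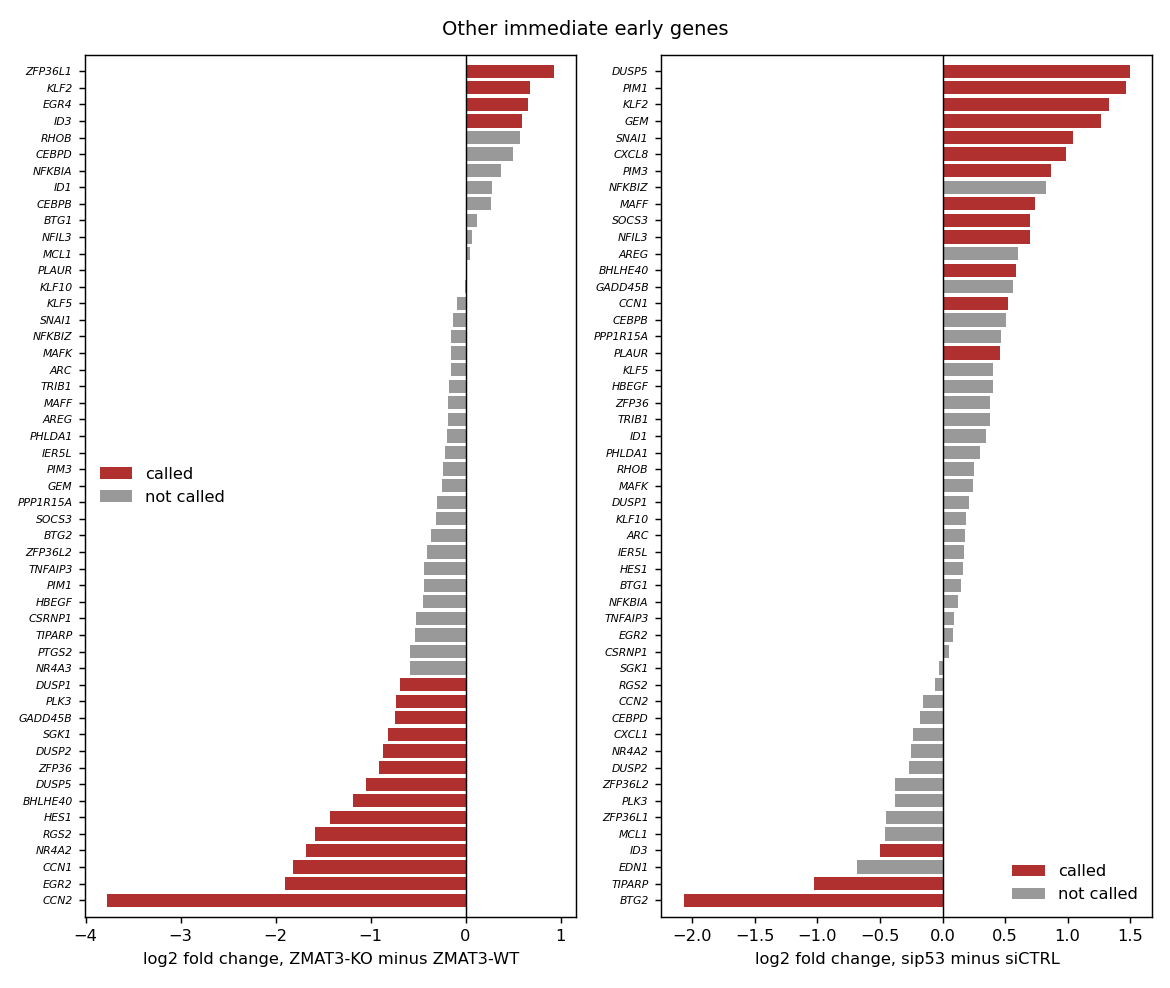
Log2 fold change (horizontal axes) of the 51 other immediate early genes tested in *ZMAT3*-KO against *ZMAT3*-WT (left) and the 51 tested in sip53 against siCTRL (right), each sorted by value. Red bars passed the threshold of that comparison. *CCN2* at -3.77 has the longest bar on the left and *BTG2* at -2.07 on the right.

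Genes that work with or downstream of the 10 moved in both directions in *ZMAT3*-KO libraries. Over all genes 4.37% were called lower and 4.6% higher, and by the adjusted p alone 30.1% were lower and 28.7% higher. Of 8 EGR corepressors and targets measured 3 were called lower, *THBS1* (-1.36), *F3* (-1.29) and *PDGFB* (-0.89), and 1, the corepressor *NAB1* (0.60), was called higher. By the limma adjusted p alone 6 of the 8 were lower and 2 higher, as by the unadjusted p, with a median of -0.44. The corepressor *NAB2* had a log2 fold change of -0.30 (limma adjusted p = 2.47e-05). Of 17 cytoskeletal targets of SRF and its MRTF cofactors 4 were called lower and 0 higher, while 7 were higher and 6 lower by the limma adjusted p alone (7 each way by the unadjusted p). The smooth muscle genes *TAGLN* (-1.70) and *ACTA2* (-0.66) and the LIM protein gene *FHL2* (-0.61) had the largest decreases among those called. None of 30 MYC nucleolar and growth targets was called by limma, but 22 were lower and 3 higher by the adjusted p alone (23 and 3 by the unadjusted p), with a median of -0.20. Of 14 MYC partners and antagonists 1 was called in each direction, the antagonist *MXD4* up (0.97) and the relative *MYCL* down (-0.74). By the limma adjusted p alone 5 of the 14 were lower and 4 higher, as by the unadjusted p. In the rest of the *KLF* family, 2 of 11 were called higher, *KLF12* (0.80) and *KLF2*, and 0 lower. By the limma adjusted p alone 5 of the 11 were higher and 3 lower, as by the unadjusted p. *KLF2* is also in the list of other immediate early genes. Of 10 heat shock genes, which respond to handling of cultures, 0 were called by limma in either direction (6 lower and 1 higher by the adjusted as by the unadjusted p), with a median of -0.16.

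In the siRNA experiment the 10 genes did not move together. *IER5* was called lower and *KLF6* higher in sip53 libraries, and the other 8 did not pass. The unit was taken to be FPKM, a level per length of transcript and per library. The numbers do not exclude TPM, which is also per length and library. A gene was called at an unadjusted p under 0.05 from limma on log2(FPKM + 0.1), over the 14274 genes that averaged 0.5 FPKM or more. That rule called 9.28% of all genes lower and 5.86% higher, so that 1 call in each direction among 10 genes was near the background. When each library was centred on its median gene, the split over all genes moved from 1325 lower and 836 higher to 1048 lower and 1120 higher. At an adjusted p of 0.05 in limma 0 of the 10 genes passed (2 passed the unadjusted p), as 0.238% of all genes did downward and 0.035% upward. In 7 genes the groups did not overlap, 5 of them higher and 2 lower in sip53, against 20.1% and 26.3% of all genes. The median log2 fold change of the 10 was 0.40, against -0.04 over all genes. With 2 libraries a group no exact permutation test can pass 0.05.

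**Figure D4:**
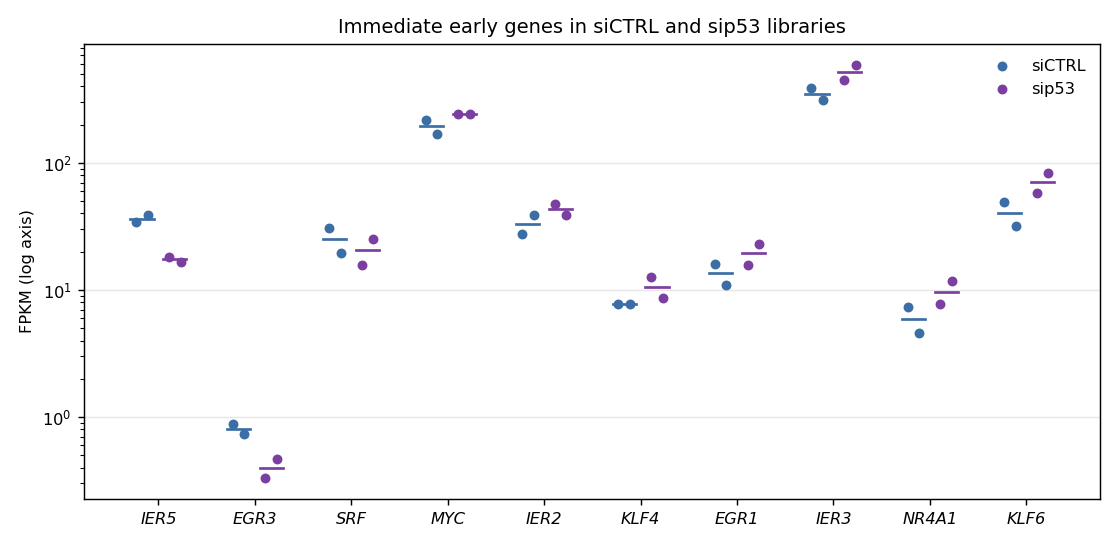
Level of each gene (FPKM, logarithmic vertical axis) in the 2 siCTRL (blue) and 2 sip53 (purple) libraries, ordered from the lowest to the highest log2 fold change. Points are libraries and bars group means. *IER5* lies lower in both sip53 libraries, at 16.62 and 18.19 against 33.99 and 39.01 FPKM, and several other genes overlap.

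FPKM allow the genes to be ordered by level. In siCTRL libraries *IER3* was highest at 351 ± 50.9 FPKM (SD, n = 2), followed by *MYC* at 195 ± 34.8 FPKM. *KLF6* (40.6 FPKM), *IER5* (36.5), *IER2* (33.3) and *SRF* (25.0) followed, and neighbours among these 4 overlapped. *EGR1* (13.5 FPKM), *KLF4* (7.79) and *NR4A1* (5.96) came next without overlapping, and *EGR3* was lowest at 0.805 FPKM. The neighbours were not tested against each other.

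*IER5* read 33.99 and 39.01 FPKM in siCTRL and 18.19 and 16.62 FPKM in sip53 libraries. Both sip53 libraries were clearly below both siCTRL libraries. The log2 fold change was -1.06 (SE 0.18, limma unadjusted p = 0.00164, adjusted p = 0.113), or 2.09-fold lower, and the call stood without any one library (-1.16 to -0.96). The genes most like it over the 4 libraries were *ZNF655*, *SEMA3B* and *CYP4V2*, with root mean square differences of 0.0190, 0.0313 and 0.0318. *IER5* was the gene of the 10 that was both lower at an adjusted p under 0.05 in *ZMAT3*-KO and called lower in sip53 libraries.

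The 3′ UTRs are relevant to how long such transcripts last, and the clustered AU-rich site of *IER5* and the single site of *SRF* are shown for that reason. The nonamer TTATTTATT was found in the 3′ UTRs of these genes only among the 10 (GENCODE release 44 canonical transcripts), and is in capitals below. *IER5* has 3 overlapping copies, in bases 2567 to 2583 of its 3′ UTR, and *SRF* has 1 copy, in bases 44 to 52. The stretches printed, which include flanking bases in lower case, are chr1:181092447-181092475 for *IER5* and chr6:43179226-43179250 for *SRF* (both plus strand, GRCh38).
IER5 3′ UTR: cttcctTTATTTATTTATTTATTtaatta
SRF 3′ UTR: ggcaccacTTATTTATTgttgcctt

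The nonamer was in 9.94% of 11212 genes of the *ZMAT3* table with a 3′ UTR of at least 100 bases. The shorter motif ATTTA, which the nonamer contains, occurred at a median of 1.78 per kb over those genes. *IER3* had 8.14 per kb (6 in 737 bases). That density was above that of 98.2% of 1319 genes with a 3′ UTR of like length (4/5 to 5/4 of its own). *NR4A1* had 5.37 per kb (3 in 559 bases). *IER5* had 3.32, *MYC* 3.01 and *KLF4* 2.22 per kb, above that median. *KLF6* (1.69 per kb), *SRF* (1.30), *EGR3* (1.07), *EGR1* (0.818) and *IER2*, with 0, were below it. The genes that were lower in *ZMAT3*-KO lay on both sides of the median, as did *KLF4* and *KLF6*, which were higher. A relation between motif and change was not tested. These letters describe the annotated sequence, and binding was not measured.

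*KLF6* read 49.54 and 31.61 FPKM in siCTRL and 57.83 and 82.71 FPKM in sip53 libraries. The sip53 libraries were both higher, with a wide spread inside each group. The log2 fold change was 0.80 (SE 0.30, limma unadjusted p = 0.0424, adjusted p = 0.308). The call ended without siCTRL replicate 2 (0.48), without sip53 replicate 2 (0.55), with no filter on low values, with no variance trend and with the replicate number as a block. The limma unadjusted p under the last 3 was 0.0693, 0.0599 and 0.0671. *KLF4* read 7.77 and 7.81 FPKM in siCTRL and 12.59 and 8.61 FPKM in sip53 libraries. Both sip53 values were above the siCTRL pair, one of them only slightly (log2 fold change 0.41, 95% interval -0.19 to 1.02). Without sip53 replicate 2 the log2 fold change of *KLF4* was 0.69 and passed.

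*IER3* read 387.17 and 315.16 FPKM in siCTRL and 450.30 and 592.87 FPKM in sip53 libraries. Its groups did not overlap, but the log2 fold change of 0.56 had a 95% interval of -0.04 to 1.17 (limma unadjusted p = 0.0618), and it passed after centring (0.64). *NR4A1* read 7.36 and 4.55 FPKM in siCTRL and 7.71 and 11.72 FPKM in sip53 libraries. The lower sip53 library was close to the higher siCTRL library, and the interval of the log2 fold change of 0.71 ran from -0.12 to 1.53 (limma unadjusted p = 0.0801). It passed without siCTRL replicate 1 (1.05) or without sip53 replicate 1 (1.00). *MYC* read 219.25 and 170.07 FPKM in siCTRL and 242.36 and 240.52 FPKM in sip53 libraries. The sip53 pair was tight and above both siCTRL values, with a log2 fold change of 0.32 (95% interval -0.21 to 0.85).

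*EGR1* read 16.13 and 10.89 FPKM in siCTRL and 15.67 and 23.19 FPKM in sip53 libraries. The groups overlapped, with a log2 fold change of 0.52 (95% interval -0.22 to 1.26) that passed without sip53 replicate 1 (0.80). *EGR3* read 0.88 and 0.73 FPKM in siCTRL and 0.33 and 0.47 FPKM in sip53 libraries. It met the filter on low values through the siCTRL libraries alone, and its log2 fold change was -0.87 (95% interval -1.95 to 0.22), which passed with no filter on low values and with no variance trend. The limma unadjusted p was then 0.0372 and 0.0169. Its size depended on the pseudocount, at -0.37 with 1 FPKM added. *EGR2* and *NR4A2*, by comparison, had overlapping groups and log2 fold changes of 0.08 and -0.25. *NR4A3* read 0.52 and 0.40 FPKM in siCTRL and 0.27 FPKM in both sip53 libraries, without overlap. It was under the filter on low values and was not tested.

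*IER2* read 27.66 and 38.93 FPKM in siCTRL and 47.86 and 38.90 FPKM in sip53 libraries. The second libraries of both groups were almost equal, and the log2 fold change of 0.39 had a 95% interval of -0.22 to 1.00. *SRF* read 30.58 and 19.37 FPKM in siCTRL and 15.60 and 25.38 FPKM in sip53 libraries. The groups crossed, and the log2 fold change of -0.29 (95% interval -1.14 to 0.56) turned to 0.04 without siCTRL replicate 1 and to 0.06 without sip53 replicate 1. In 6 of the 10 genes (*EGR1*, *EGR3*, *IER3*, *KLF6*, *NR4A1* and *SRF*) replicate 1 was the higher siCTRL library and the lower sip53 library. In 3 (*IER2*, *IER5* and *KLF4*) it was the reverse, and in *MYC* replicate 1 was the higher library of both groups. This crossing was not particular to the 10 genes. Over the 14274 genes tested, deviations of same-numbered libraries from their group means had a correlation of -0.616.

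**Figure D5:**
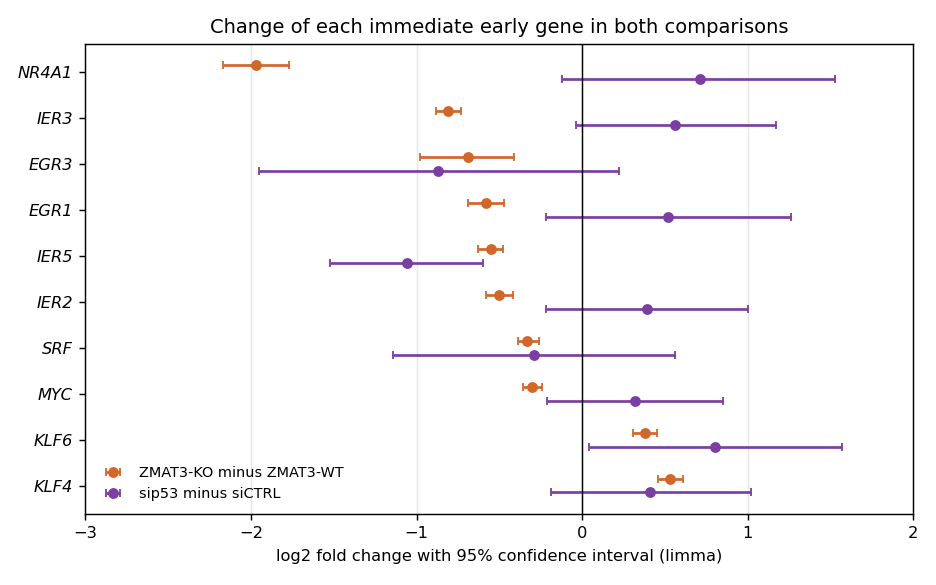
Log2 fold change (horizontal axis) of each of the 10 genes in *ZMAT3*-KO against *ZMAT3*-WT (orange) and in sip53 against siCTRL (purple). Points are limma estimates and bars 95% confidence intervals. The orange intervals all leave out 0, whereas of the purple ones only those of *IER5* (-1.52 to -0.60) and *KLF6* (0.04 to 1.57) do.

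Side by side, the log2 fold changes in *ZMAT3*-KO and then in sip53 were -1.97 and 0.71 for *NR4A1*, -0.81 and 0.56 for *IER3*, -0.58 and 0.52 for *EGR1*, -0.50 and 0.39 for *IER2*, and -0.30 and 0.32 for *MYC*. In these 5 genes the signs of the estimates were opposite, and none of the sip53 values passed. For *EGR3*, *IER5*, *SRF*, *KLF4* and *KLF6* the signs were alike, but of their sip53 values only those of *IER5* and *KLF6* passed. The experiments were normalized separately, on a log2 CPM and an FPKM scale, and the difference between them was not tested.

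Of the other immediate early genes 51 of 54 were tested in the siRNA experiment, and 13 were called higher and 3 lower. The same rule called 5.86% of all genes higher and 9.28% lower. The median log2 fold change of the list was 0.24. The phosphatase gene *DUSP5*, which inactivates ERK in the nucleus, had a log2 fold change of 1.5 (SE 0.24, limma unadjusted p = 0.00123, adjusted p = 0.107). The kinase gene *PIM1* had one of 1.47 and *KLF2* one of 1.33. *BTG2*, an antiproliferative gene induced by p53, read 75.28 and 62.46 FPKM in siCTRL and 14.99 and 17.62 FPKM in sip53 libraries. With a log2 fold change of -2.07 it was the only gene of the list past an adjusted p of 0.05 (limma, 0.0425), and *TIPARP* (-1.03) and *ID3* (-0.50) were the others called lower.

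Partners and targets were again mixed in sip53 libraries, where the rule called 5.86% of all genes higher and 9.28% lower. Of the 5 SRF cofactors 2 were called lower, *MRTFB* (listed as *MKL2*, -0.50) and *ELK4* (-0.45), while *MRTFA* (listed as *MKL1*) stood at 0.03, *ELK1* at -0.22 and *ELK3* at -0.01. Of 17 SRF and MRTF cytoskeletal targets 1 was called lower and 1 higher. *ACTA2* read 26.26 and 21.47 FPKM in siCTRL and 1.74 and 1.68 FPKM in sip53 libraries, a log2 fold change of -3.72 (limma adjusted p = 0.0105), and *TAGLN2* had one of 0.53. Of 8 EGR corepressors and targets *F3* was called higher (0.71) and *THBS1* lower (-0.99), and *NAB1* (-0.31) and *NAB2* (-0.08) did not pass. Of 30 MYC targets 1 was called higher, *FBL* (0.70), and 2 lower, *RRP12* (-0.63) and *CDK4* (-0.62), and *MAX* stood at -0.47 with overlapping groups. Of 14 MYC partners and antagonists *MXD3* was called higher (0.94) and *MXD4* (-0.62) and *FBXW7* (-0.52) lower. In the rest of the *KLF* family 3 of 12 were called higher, *KLF7* (1.36), *KLF2* (1.33) and *KLF11* (0.86), and 0 lower by the unadjusted p of limma. *KLF2* was also counted among the other immediate early genes. None of 10 heat shock genes passed the unadjusted p of limma, with a median of 0.12.

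Antisense transcripts share exon bases with several of the 10 genes in GENCODE release 44, among them *NR4A1AS* with *NR4A1* (754 bases) and *IER3-AS1* with *IER3* (440 bases), and unnamed ones with *IER2* and *KLF4*. The *ZMAT3* libraries were made with a kit that keeps the strand. Whether strand was used in counting is not given for either experiment in the sources used here. Sense and antisense reads of these genes cannot be told apart where it was not.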

How the data were processed

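RNA-seq values of 10 HCT116 libraries were analysed, grouped by their labels. For the *ZMAT3* libraries mRNA was captured on oligo(dT) and stranded libraries were made. The authors used Cutadapt for trimming, STAR for alignment (hg38) and RSEM for gene quantification, and the deposited values are log2 CPM. The 6 libraries share one distribution of values (-6.62 to 13.51), and their linear values sum to 999929 to 999931. For the siRNA libraries the deposited values were read as FPKM, with sums of 708634 to 829230; how they were made is not given in the sources used here. The submitters' processing notes name CASAVA 1.8.2, TopHat2 2.0.8 and FastQC 0.11.2 with no role. Both tables also hold the authors' fold changes and p-values, which were not used. No counts are given, so depth is unknown and no count model was run. Pearson's r between replicates across genes was 0.995 to 0.996 for the *ZMAT3* libraries and 0.976 and 0.972 for the siRNA pairs.

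The tables were fitted separately (limma 3.58.1, R 4.3.3; variance trend, two-sided, Benjamini-Hochberg adjustment over all genes tested). The *ZMAT3* table had no filter and was called at an adjusted p of 0.05 and 1.5-fold. The siRNA table was tested as log2(FPKM + 0.1) at a mean of at least 0.5 FPKM and called at an unadjusted p of 0.05, as the study does. Fold changes on that scale understate changes of low genes. The scripts were tested on simulated data. The genes, lists and rules were chosen with earlier results of these data known. Named genes were the 10 genes, their partners, *ZMAT3* and *CDKN1A*, and up to 3 called genes with the largest change per list and direction. The remaining *EGR* and *NR4A* genes, *ZFP36*, *ZFP36L2* and the marker genes given individually were added after their values were seen. A further gene of the naming rule is not reported here. Alternatives were other pseudocounts, filters and thresholds, the replicate number as a block, centring, a fit without the variance trend, and leaving out each library.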

Additional observations from a re-analysis of the deposited data

How the results depend on the processing

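In *ZMAT3*-KO against *ZMAT3*-WT the sign of all 10 genes held under every alternative. Filters, thresholds, the variance trend and the balanced replicate block leave the log2 fold change as it is. The library medians were 4.782 to 4.784 log2 CPM, so centring could not change a sign either. In all 10 genes the groups did not overlap, so neither a pseudocount nor leaving out a library could. The signs were thus fixed in advance, and only sizes and calls could vary. Without a fold threshold 8 of the 10 were lower and 2 higher, the other immediate early genes gave 34 lower and 10 higher, and all genes 3925 and 3734. At 2-fold these counts were 1 lower among the 10, 8 and 0 among the others, and 196 and 200 over all genes. Adding 1 CPM gave 2 higher among the others and 397 over all genes. Without one library the *ZMAT3*-KO calls ranged from 3 to 4 lower among the 10 and from 2 to 5 higher among the others (2 without *ZMAT3*-WT replicate 3).

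In sip53 against siCTRL calls depended on the setting. With no filter and with no variance trend 0 of the 10 were higher and 2 lower, and with no filter 5 of the others were lower. A mean of at least 5 FPKM left 555 of all genes higher, and centring gave 2 of the 10 higher. At an adjusted p of 0.05 the counts higher and lower were 0 and 0 of the 10, 0 and 1 of the others, and 5 and 34 of all genes. Without one library, where the lone sample of a group is assumed to vary like the others, 0 to 3 of the 10 were higher (2 without siCTRL replicate 1, 0 without siCTRL replicate 2, 3 without sip53 replicate 1), 5 to 11 of the others were higher (5 without siCTRL replicate 2), and of all genes 482 to 720 were higher and 635 to 1171 lower. *SRF* turned from -0.29 to between -0.64 and 0.06, above 0 without siCTRL replicate 1 (0.04) or sip53 replicate 1 (0.06). The cause was not tested.

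Same-numbered libraries did not deviate together, so the numbers were not taken to pair the samples. Their correlations were -0.0387, -0.0218 and -0.093 in the *ZMAT3* experiment. In the siRNA experiment same-numbered libraries deviated in opposite directions (-0.616) and libraries of unlike number together (0.616). With 2 libraries a group these values can differ only in sign. The cause of the crossed pattern was not tested. With the replicate number as a block *KLF6* lost its call in sip53 and no other call of the 10 genes changed: 0 of the 10 genes and 8 of the others were higher in sip53, and of all genes 434 were higher and 650 lower; no count of the *ZMAT3* experiment moved by over 1.5 times. A crossed pairing of the siRNA libraries, chosen after seeing the data, gave 7 of the 10 higher and 2 lower, 25 and 8 of the others, and 2410 and 3128 of all genes.

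The absence of counts limits what low values such as those of *EGR3* can show, and 2 libraries a group leave wide intervals in the siRNA experiment.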
